A study of Mus musculus with 8 samples.

Results

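Open chromatin was compared between mouse squamous cell carcinoma (SCC) cells that express a kinase-deficient focal adhesion kinase (FAK-kd) and SCC cells that lack FAK (FAK-/-). The comparison was made through the regions called as accessible in both libraries of one line and in neither library of the other. An equal number of peaks was taken from each library, those with the highest −log10 p, and merging over all libraries gave 40309 regions, of which 33899 were called in at least 1 of the 4 libraries compared. Of these, 1088 regions (3.21%) were called in both FAK-kd libraries and neither FAK-/- library (kd-only), and 1226 (3.62%) in both FAK-/- libraries and neither FAK-kd library (null-only), 2314 regions in all. Members were chosen by these calls alone, and their number follows from the rule.

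Both lines descend from the same SCC cells, which came from K14CreER FAKflox/flox FVB mice after two-stage skin carcinogenesis with DMBA and TPA. The K14 promoter directs the tamoxifen-dependent Cre to keratinocytes, and *Ptk2*, the gene of FAK, was deleted in culture with 4-hydroxytamoxifen. FAK-kd cells are a FAK-/- clone transduced by retrovirus with FAK carrying the K454R substitution and selected in hygromycin, so that the re-expressed protein, the viral insertions and the selection of the cells cannot be told apart. FAK-WT and FAK-nls cells carry wild-type FAK or FAK with mutated nuclear localization sequences in the same clone. Their calls did not decide which regions are members. Their peaks did enter the merging into regions, the choice of how many peaks were kept and the comparison of strength at shared regions. Each of the 4 lines has 2 ATAC-seq libraries, in which a transposase cuts accessible DNA.

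FAK is a tyrosine kinase that binds integrin complexes at the cell membrane, where it is activated, and it also serves as a scaffold that holds Src, p130Cas, paxillin and other proteins together. A kinase-deficient FAK can still bind many of these partners, and FAK can also enter the nucleus and associate with transcription regulators. Comparing FAK-kd cells with FAK-/- cells therefore asks what FAK protein with little catalytic activity adds to cells that have none. Accessible regions away from promoters are mostly enhancers, and in skin tumor cells many hold a site for AP-1, the Jun and Fos family of transcription factors that is induced by growth factor and adhesion signaling.

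The deposited lists held 32961 and 45956 peaks for FAK-kd cells and 43153 and 35256 for FAK-/- cells, a mean difference of 254 peaks that was far smaller than the spread between replicates (exact permutation test, two-sided, p = 1). The lists give peaks and no read counts per region. The study's supplement lists fewer mapped reads for both FAK-kd libraries than for both FAK-/- libraries, and the part of this difference in the sets was not tested. The weakest peak that entered had a −log10 p of 4.95 and 6.63 in the FAK-kd libraries and 6.13 and 5.17 in the FAK-/- libraries, so the same rank stood for different strengths. The overlap of the strongest peaks was measured by the Jaccard index, the bases shared by a pair over the bases covered by either. It was 0.578 within FAK-kd, 0.610 within FAK-/- and 0.562 to 0.580 between the lines. In bases covered, the FAK-kd libraries were thus no more alike than a FAK-kd and a FAK-/- library. Of 9 keratinocyte or SCC markers, the promoter of *Itga6* was called in all 8 libraries and those of *Krt5*, *Krt14*, *Trp63*, *Krt8*, *Krt18*, *Cdh1* and *Grhl2* in none, so the called promoters gave little sign of keratinocyte identity in any line. No immune or endothelial marker promoter was called, while *Col1a2* of the fibroblast list and *Mitf* and *Pmel* of the melanocyte list were called in all 8 libraries. Promoter calls at these lists were alike in the FAK-kd and FAK-/- libraries, at 1 of 9 keratinocyte, 2 or 3 of 5 fibroblast and 2 of 4 melanocyte markers. In bulk libraries of this kind, fewer cells with an open region and less opening per cell cannot be told apart.

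The deleted gene itself gave no check of the labels. *Ptk2* (chr15:73205102-73423280, minus strand) had 4 regions called in all 4 libraries, among them its promoter at chr15:73422582-73423686. The fold enrichment of that promoter peak over the local background of its library was 6.04 and 5.67 in FAK-kd cells and 5.02 and 5.00 in FAK-/- cells. None of the *Ptk2* regions was kd-only or null-only.

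The sequence at the center of some of the strongest members is printed here because the motifs in it are taken up again below. Strength was ranked by the poorer of the ranks in the 2 libraries that define the set. Each sequence is 240 bases of the plus strand of GRCm38 (mm10) from RefSeq, with exact motif matches in capitals. The 3 strongest kd-only regions each hold AP-1 (TGACTCA, or TGAGTCA on the opposite strand). They lie at chr17:94002264-94002503 between genes, with *Mettl4* as the nearest protein-coding gene, at chrX:87529176-87529415 in an intron at *Il1rapl1*, and at chr4:65254152-65254391 in an intron of *Pappa*.
Mettl4: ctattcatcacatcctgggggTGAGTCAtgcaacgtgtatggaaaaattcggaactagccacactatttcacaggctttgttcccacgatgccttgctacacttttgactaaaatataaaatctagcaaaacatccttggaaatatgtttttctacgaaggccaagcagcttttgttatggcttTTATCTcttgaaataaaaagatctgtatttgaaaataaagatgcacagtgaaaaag
Il1rapl1: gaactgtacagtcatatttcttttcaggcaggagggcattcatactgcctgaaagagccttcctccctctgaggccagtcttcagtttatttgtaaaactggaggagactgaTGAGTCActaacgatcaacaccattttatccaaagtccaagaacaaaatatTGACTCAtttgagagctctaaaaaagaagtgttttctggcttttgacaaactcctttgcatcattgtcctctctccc
Pappa: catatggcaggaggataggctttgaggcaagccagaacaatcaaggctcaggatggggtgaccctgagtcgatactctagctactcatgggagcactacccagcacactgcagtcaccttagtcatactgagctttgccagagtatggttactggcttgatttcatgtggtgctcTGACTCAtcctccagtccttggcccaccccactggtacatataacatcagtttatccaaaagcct

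The 2 strongest null-only regions differ from these in that no AP-1 match lies in the stretch shown. The window at chr4:91376559-91376798 is upstream of *Elavl2* and holds an NFY match (CCAATCA, or TGATTGG on the opposite strand), and the window at chr1:183600552-183600791 near *Hhipl2* holds an ETS match (AGGAAGT or CGGAAGT on either strand). The wider 500 bases at the center of the *Elavl2* region also hold AP-1 and ETS.
Elavl2: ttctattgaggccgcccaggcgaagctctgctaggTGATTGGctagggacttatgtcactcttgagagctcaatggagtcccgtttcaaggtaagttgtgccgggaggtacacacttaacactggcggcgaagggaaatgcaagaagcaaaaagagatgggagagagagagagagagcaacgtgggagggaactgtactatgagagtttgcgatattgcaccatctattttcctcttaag
Hhipl2: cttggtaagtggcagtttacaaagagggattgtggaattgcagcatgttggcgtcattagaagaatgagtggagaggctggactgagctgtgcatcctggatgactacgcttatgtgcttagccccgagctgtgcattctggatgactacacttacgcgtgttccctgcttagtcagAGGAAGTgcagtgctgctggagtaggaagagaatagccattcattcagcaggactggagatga

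The *Nid2* promoter is shown as the strongest kd-only region that had no peak at all in the other 6 libraries. The 240 bases before the *Nid2* start, chr14:19751025-19751264 on the plus strand, which is also the strand of the gene, hold 2 NFY matches, 1 RUNX match (AACCACA) and 1 SP/KLF match (GGGCGGG). In the central 500 bp of the promoter regions called in at least 1 of the 4 libraries, a longer window than this, NFY was found in 9.87%, RUNX in 7.03% and SP/KLF in 48.4%.
Nid2: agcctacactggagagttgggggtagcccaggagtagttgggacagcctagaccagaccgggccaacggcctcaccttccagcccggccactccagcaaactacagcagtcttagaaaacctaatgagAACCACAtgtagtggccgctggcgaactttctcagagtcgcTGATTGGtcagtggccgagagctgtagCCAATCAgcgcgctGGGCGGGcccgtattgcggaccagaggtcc

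A call pattern describes which of the 4 libraries called a region, and the members are 2 of the 15 possible patterns. All 4 libraries called 16263 regions, 48.0% of those called in any. The 4 patterns with 1 library of each line held 625 to 684 regions each, and the 4 single-library patterns 1826 to 2359 each. Regions that kept the replicates of a line together were thus more frequent than regions that paired libraries across lines, and less frequent than regions seen in 1 library.

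**Figure D1:**
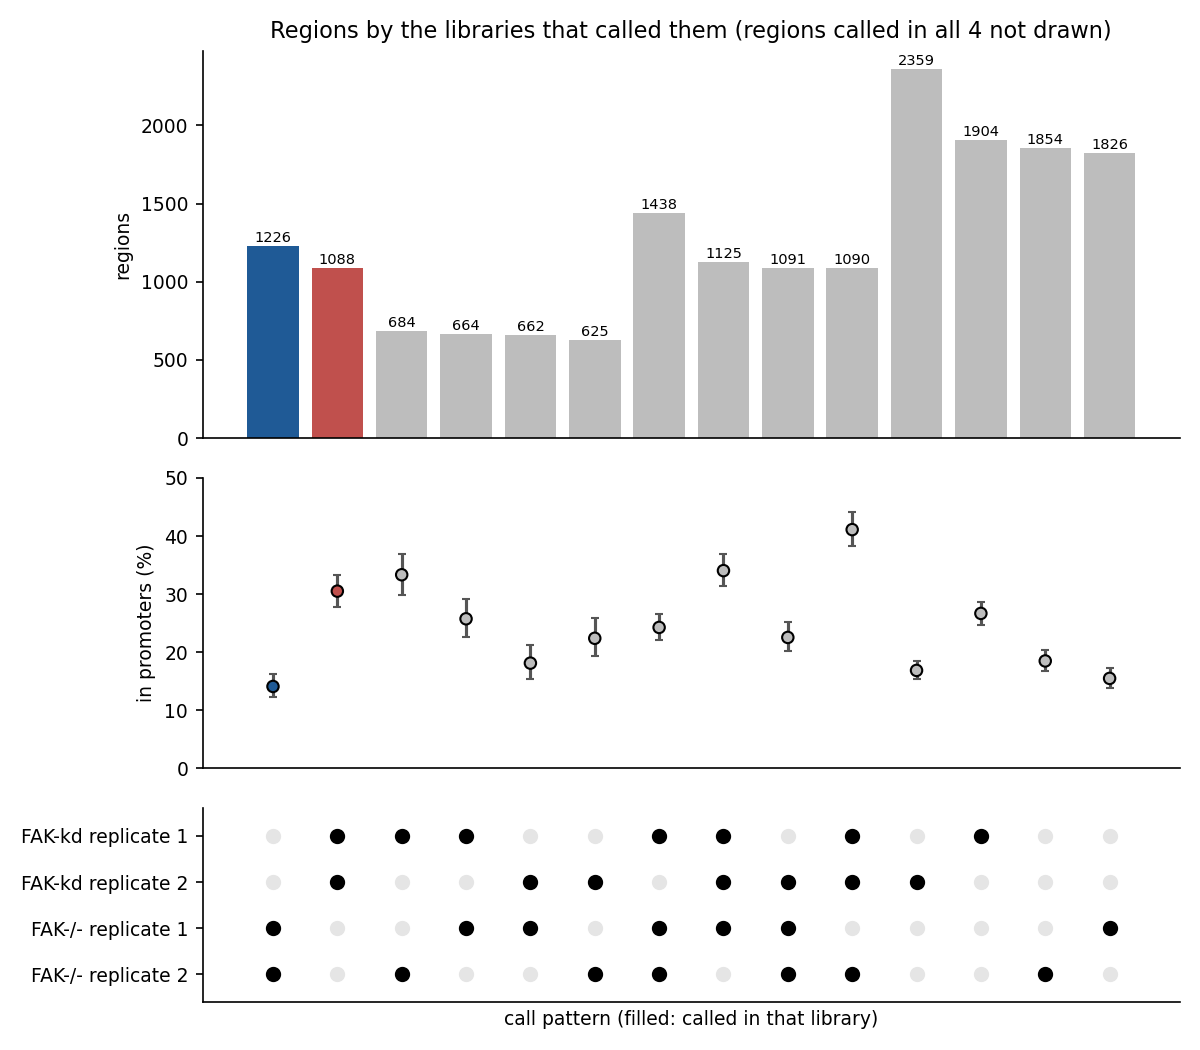
Number of regions (top), share in promoters with 95% Wilson intervals (middle) and the libraries that called them (bottom, filled circles) for the 14 call patterns other than all 4. Kd-only (red, 1088) and null-only (blue, 1226) regions outnumber the 4 mixed pairs (625 to 684), and the promoter share is higher in patterns that include FAK-kd replicate 1.

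Most members were near the limit of the ranking rather than switched on or off. The median of the poorer rank was 21306 for kd-only and 20678.5 for null-only regions, against 13284 for regions called in all 4 libraries, and 20 kd-only (1.84%) and 34 null-only regions (2.77%) were within the first 10000 in both libraries. Median fold enrichment of the kd-only peaks was 4.11 and 5.01 in the FAK-kd libraries, and that of the null-only peaks 4.63 and 4.24 in the FAK-/- libraries. When the full deposited lists were searched, 591 kd-only regions (54.3%) had a peak below the ranking limit in both FAK-/- libraries. Another 325 (29.9%) had one in 1 of them and 172 (15.8%) in neither. Among null-only regions 536 (43.7%) had a peak below the limit in both FAK-kd libraries, 485 (39.6%) in 1 and 205 (16.7%) in neither. A peak below the limit was found more often in the library with the longer list of each line. It was found at 870 against 637 kd-only regions in the FAK-/- libraries and at 944 against 613 null-only regions in the FAK-kd libraries. Such a peak ranked lower within its own library and was not always weaker. At the null-only *Erbb3* promoter, the FAK-kd replicate 2 peak had a fold enrichment of 4.70, against 3.55 and 3.62 in FAK-/- cells. At the kd-only region near *Dusp4*, FAK-/- replicate 1 had 3.11, against 3.04 in FAK-kd replicate 1.

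The kd-only regions lay in promoters more often than the null-only regions. A promoter was counted where the center of the region fell between 500 bp upstream and 2000 bp downstream of an annotated transcript start, coding or not. This held for 332 kd-only regions (30.5%, 95% Wilson interval 27.9 to 33.3) and 173 null-only regions (14.1%, 12.3 to 16.2), compared with 34.5% in the regions called at least 1 time and 46.6% in those of all 4 libraries. Introns held 36.0% of kd-only and 46.4% of null-only regions, intergenic sequence 31.3% and 36.4%, and exons 2.11% and 3.10%. At protein-coding starts there were 265 kd-only regions (24.4%) at 264 genes and 102 null-only regions (8.32%) at 101 genes. Of the regions called in at least 1 library 28.6% lay at such starts, at 9088 genes. No gene was in both groups, which was not tested, and with so few of these genes in either group nothing is read from it. Intervals of this kind cover only the counting of regions, which are not replicates of the lines. The median GC content was 48.6% and 46.6% and the median length 650 and 538 bp, both lower than for regions called in all 4 libraries (52.2% and 946 bp).

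**Figure D2:**
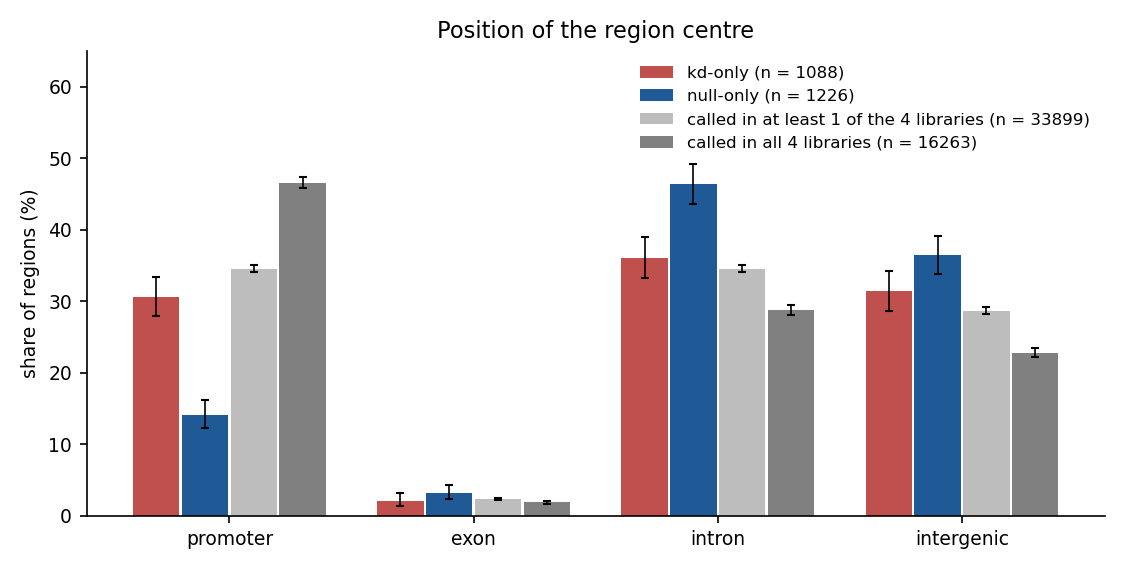
Share of regions by the position of their center, with 95% Wilson intervals, for kd-only, null-only and reference regions. Promoters hold 30.5% of kd-only and 14.1% of null-only regions, and introns 36.0% and 46.4%.

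The promoter share also differed between the other call patterns. Among regions called in only 1 library, promoters made up 26.7% for FAK-kd replicate 1, 16.9% for FAK-kd replicate 2, 15.5% for FAK-/- replicate 1 and 18.5% for FAK-/- replicate 2. Among the mixed pairs the share was 33.3% for FAK-kd replicate 1 with FAK-/- replicate 2 and 25.8% for FAK-kd replicate 1 with FAK-/- replicate 1, against 22.4% and 18.1% for the pairs that included FAK-kd replicate 2. Among regions called in 3 libraries it was 24.3% where FAK-kd replicate 1 joined both FAK-/- libraries and 22.5% where FAK-kd replicate 2 did, and 34.0% and 41.1% where FAK-/- replicate 1 or 2 joined both FAK-kd libraries. Every pattern with FAK-kd replicate 1 thus had a higher share than every pattern without it, and the share was also higher in each pattern with FAK-kd replicate 2 than in the same pattern without it. Without FAK-kd replicate 1, the regions called in the remaining FAK-kd library and neither FAK-/- library had a promoter share of 21.3%, and null-only regions one of 19.6%. Without FAK-kd replicate 2 the shares were 28.2% and 18%. The gap between the sets was thus 1.68 and 10.1 percentage points in these cases, against 16.4 with all libraries. With all deposited peaks the shares were 14.7% and 12.7%, and among the members with no peak in the full lists of the other line they were 13.4% (9.08 to 19.3) and 11.2% (7.59 to 16.3). Without regard to the sets, 41.2% and 39.7% of the strongest FAK-kd peaks and 38.3% and 39.1% of the strongest FAK-/- peaks lay in promoters, a difference of 1.79 percentage points. The libraries did not overlap, but with 2 against 2 the exact permutation test cannot go below p = 0.333, the two-sided value found. Without FAK-kd replicate 1 the difference was 1.03 points. Over all deposited peaks the promoter shares were 36.7% and 30% in FAK-kd and 31.5% and 34.9% in FAK-/- libraries, which overlapped, with a difference of 0.13 points (exact permutation test, two-sided, p = 1). The part of either FAK-kd library, or of the shorter peak list of FAK-kd replicate 1, in the promoter share was not tested.

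The 5 strongest kd-only regions at protein-coding promoters were those of *Nid2*, *Prr13*, *Dusp5*, *Cwc25* and *Ptpre*. The region at *Nid2*, which encodes the basement membrane protein nidogen-2, lies at chr14:19751010-19751632 and had a fold enrichment of 4.95 and 6.43 in the FAK-kd libraries, with no peak in the other 6 libraries. *Dusp5*, which encodes a nuclear ERK phosphatase, had its region at chr19:53528728-53529593, with 4.19 and 4.49 in FAK-kd cells, a weaker peak of 3.34 in FAK-/- replicate 1 and none in replicate 2. The *Dusp5* region was called in all FAK-WT and FAK-nls libraries, at 4.41 and 4.58 and at 4.45 and 4.42, and FAK-/- cells were the line in which it was not called. The splicing factor gene *Cwc25* behaved similarly, at 4.96 and 6.54 in FAK-kd cells against 3.94 and 3.48 in FAK-/- cells, and was called in all FAK-WT and FAK-nls libraries. *Prr13* had 4.24 and 5.26 against 2.94 and 3.06. At *Ptpre*, a receptor-type tyrosine phosphatase gene, values were 4.67 and 6.51 against 3.78 and 3.20, and both FAK-nls libraries called the region, and no FAK-WT library did.

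The 5 strongest null-only regions at protein-coding promoters were those of *Elavl2*, *Fam160a1*, *Iqsec1*, *Aspa* and *S100a10*. *Elavl2*, which encodes an RNA-binding protein best known from neurons, had the highest rank of any member, with 9.09 and 6.92 in the FAK-/- libraries against weaker peaks of 3.68 and 3.40 in the FAK-kd libraries (chr4:91376318-91377038). Both FAK-WT libraries also called it, at 6.94 and 7.59, as did 1 FAK-nls library at 4.76. *S100a10*, the partner of annexin A2, had a region at chr3:93562379-93562774 with 4.65 and 4.74 in FAK-/- cells and no peak in any FAK-kd or FAK-nls library. *Iqsec1*, an exchange factor for Arf GTPases, had 4.44 and 4.03 against 3.02 and 3.73. *Fam160a1* had 6.51 and 5.82 in FAK-/- cells against 3.82 and 4.76, and *Aspa* 4.87 and 4.38 against 3.51 and 3.59. In 4 of these 5 regions the FAK-kd libraries thus had weaker peaks.

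Of the 10 strongest kd-only regions over all positions, 7 held AP-1, which was found in 39.5% of all kd-only regions and, outside promoters, in 50% of them and in 52.0% of the regions called in at least 1 of the 4 libraries. The FAK-WT libraries both called 8 of the 10 and the FAK-nls libraries both called 5. Of all kd-only regions both FAK-WT libraries called 33.5%. Of the regions called in at least 1 of the 4 libraries they called 57.4%, and of those called in 1 to 3 of the 4 they called 26.8%. At *Pappa*, which encodes a metalloprotease that cleaves IGF-binding proteins, the region at chr4:65253857-65254685 had 6.87 and 7.30 in FAK-kd cells and 7.52 and 7.85 in FAK-WT cells, and no peak in either FAK-/- or FAK-nls library. Kinase-deficient and wild-type FAK thus went together at *Pappa*, and the nuclear localization mutant went with FAK-/- cells. At the *Mettl4* region (chr17:94001673-94003094) the values were 6.77 and 7.13 in FAK-kd cells, with 3.29 in FAK-/- replicate 1 and no peak in replicate 2, and all FAK-WT and FAK-nls libraries called it. The *Il1rapl1* region (chrX:87528974-87529617) had 6.83 and 8.85 in FAK-kd cells against weaker peaks of 4.24 and 3.65. *P3h2*, which encodes a collagen prolyl 3-hydroxylase, had a kd-only region at chr16:26041194-26041987 near the start of a transcript other than its coding ones, with 6.08 and 7.42 against 3.90 and 3.97. *Mctp1* had 6.33 and 7.59, and *Arhgap28* 5.98 and 7.43. The others were near *Cbln2*, *Fryl* and *Atp6ap1l* and at the *Nid2* promoter.

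**Figure D3:**
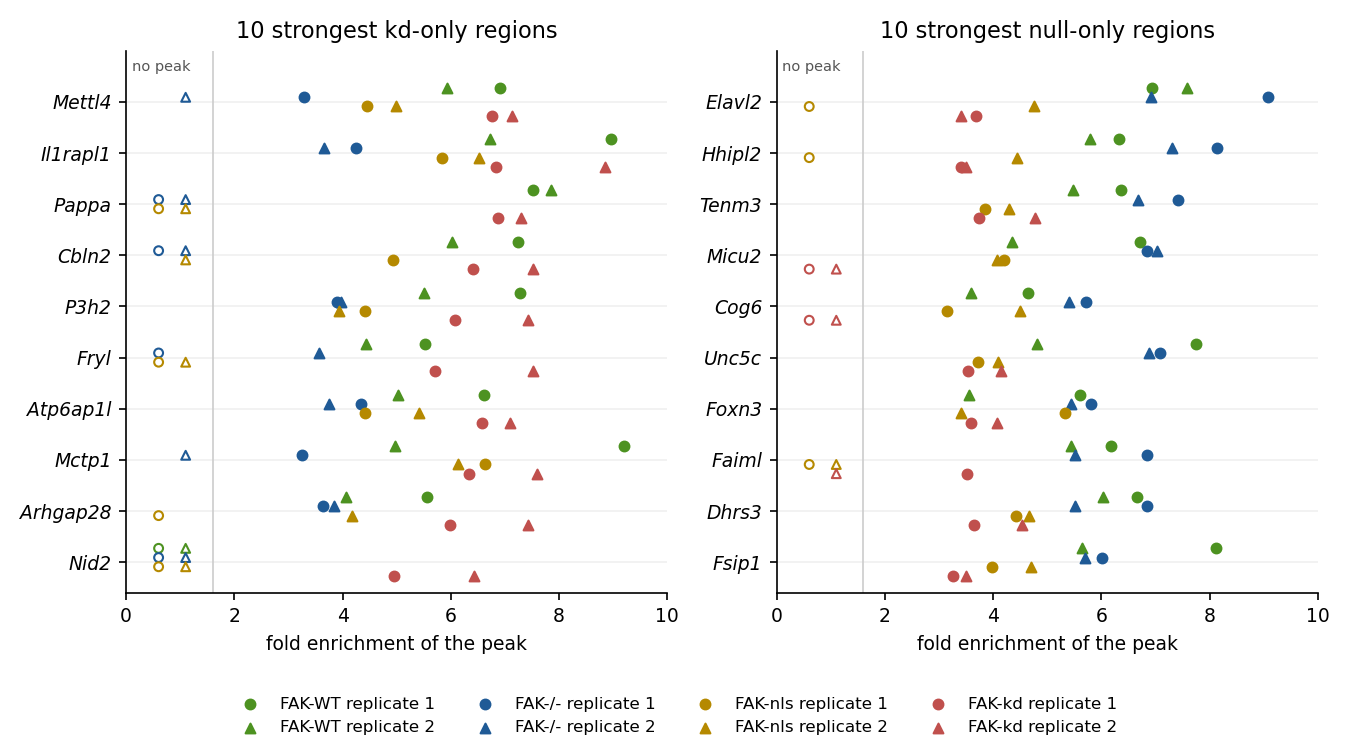
Fold enrichment of the peaks in all 8 libraries at the 10 strongest regions of each set, named by the nearest protein-coding gene, with open symbols left of the gray line where a library has no peak. At kd-only regions the FAK-kd libraries lie at 4.95 to 8.85 and the FAK-/- peaks, where present, at 3.26 to 4.34, while at null-only regions the FAK-/- libraries lie at 5.39 to 9.09 and the FAK-kd peaks at 3.26 to 4.77.

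AP-1 was held by 5 of the 10 strongest null-only regions, near its share of 50.7% in all null-only regions. The FAK-WT libraries both called 8 of the 10 and the FAK-nls libraries both called 7, against 27.7% and 23.0% of all null-only regions. Of the regions called in at least 1 of the 4 libraries they called 57.4% and 55.45%. Of those called in all 4, which also rank higher than most members, they called 90.7% and 86.3%. The region near *Hhipl2* (chr1:183600409-183600933) had 8.14 and 7.30 in FAK-/- cells against 3.40 and 3.51 in FAK-kd cells. *Tenm3*, which encodes a teneurin adhesion receptor, had 7.42 and 6.68 against 3.73 and 4.77 (chr8:49439839-49440678). *Micu2*, a regulator of mitochondrial calcium uptake, had 6.85 and 7.03, with no peak in either FAK-kd library (chr14:57945629-57946291). *Cog6*, a Golgi tethering subunit, had 5.72 and 5.39, again with no FAK-kd peak. *Unc5c*, a netrin receptor, had 7.09 and 6.88 against 3.54 and 4.14, and *Dhrs3*, a retinal reductase, 6.85 and 5.51 against 3.65 and 4.53. *Foxn3*, *Faiml*, *Fsip1* and the *Elavl2* promoter completed the list. These 20 regions are the strongest of their sets and not typical of them. With all deposited peaks in place of the strongest, 3 of the 10 kd-only and 2 of the 10 null-only regions stayed in their set, as did 1 of the 5 promoter regions named for each set. With peaks ranked by fold enrichment, 6 of the 10 regions of each set, all 5 kd-only promoters and 3 of the 5 null-only promoters stayed.

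Some genes had several members nearby. *Has2*, which encodes a hyaluronan synthase, was the nearest coding gene of 4 kd-only regions, of 9 regions called there in at least 1 of the 4 libraries, and *Lrrc4c* of 4 of 13. In all, 12 genes were nearest to 3 kd-only regions, and the 3 of these with the strongest regions were *Arhgap28* (3 of 13), *Peli2* (3 of 11) and *Rarb* (3 of 8). The *Has2* region at chr15:56685415-56686070 had 4.81 and 6.18 in the FAK-kd libraries and no peak in any FAK-/- or FAK-nls library, and the one at chr15:56678897-56679446 had 4.32 and 5.83 and none in those libraries either. In FAK-WT replicate 1 the same regions reached 6.25 and 6.09, while FAK-WT replicate 2 had weaker peaks of 3.36 and 3.77 that did not enter. Near *Peli2*, an E3 ubiquitin ligase gene, a region at chr14:47937239-47937732 had 6.06 and 7.0, against no peak in the FAK-/- and FAK-nls libraries and 6.87 and 5.29 in the FAK-WT libraries. The 1 Mb window from chr14:47000000-47999999, with *Atg14*, *Ktn1* and *Peli2*, held 7 kd-only regions of 33 called in at least 1 library, the most of any window. *Rarb* encodes a retinoic acid receptor, and its 3 regions had 5.05 to 5.70 in FAK-kd replicate 1.

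On the null-only side, *Cln8* was nearest to 4 regions of 18 and *Nlgn1*, which encodes the synaptic adhesion protein neuroligin-1, to 4 of 7. Among 14 genes nearest to 3 null-only regions, those with the strongest regions were *Fam189a1* (3 of 10), *Fam135b* (3 of 18) and *Sik3* (3 of 18). The *Nlgn1* region at chr3:25734245-25735029 had 7.40 and 4.72 in FAK-/- cells against 3.53 and 4.50 in FAK-kd cells. The *Cln8* region at chr8:14642497-14642935 had 4.60 and 4.62 with no FAK-kd peak. *Sik3*, a salt-inducible kinase gene, had a region at chr9:46215420-46216130 with 4.85 and 4.77 against 3.19 and 3.27. Over all members, 973 coding genes were nearest to a kd-only region and 1101 to a null-only region. Of these, 94 genes were nearest to both (9.66% and 8.54% of each list). No background share of nearest genes is given here, so nothing is read from this overlap. By chromosome the null-only share of regions was highest among the autosomes on chromosome 7, with 134 of 2318 regions (5.78%, 4.90 to 6.81), where the kd-only share was 1.94%. The kd-only share was highest on chromosome X (4.72%) and chromosome 12 (4.66%). Chromosome 15 had 4.37% kd-only and 2.19% null-only regions. 

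The members were also looked up in the 4 libraries whose calls did not decide membership. Of the kd-only regions, 49.8% and 49.2% were called in the FAK-WT libraries and 47.7% and 49.1% in the FAK-nls libraries, below the 67%, 66.2%, 63.6% and 64.4% of all regions called in at least 1 of the 4 libraries compared. That reference includes the 16263 regions called in all 4. Among the 17636 regions called in 1 to 3 of the 4, the members included, the shares were 41.6%, 40.5%, 38.7% and 39.3%, below those of the kd-only regions. The null-only regions were called in 42.2% and 42.8% of cases in the FAK-WT libraries and in 34.7% and 38.0% in the FAK-nls libraries. Both FAK-WT libraries called 365 kd-only regions (33.5%, 30.8 to 36.4) and 339 null-only regions (27.7%, 25.2 to 30.2), and neither called 376 (34.6%) and 523 (42.7%). A kd-only region was therefore about as often absent from both FAK-WT libraries as present in both. Of the regions called in 1 to 3 of the 4 libraries compared, both FAK-WT libraries called 26.8% and neither called 44.7%. The null-only shares were near these. Of the regions called in at least 1 of the 4, both called 57.4% and neither called 24.2%. Both FAK-nls libraries called 379 kd-only (34.8%) and 282 null-only regions (23.0%). Of the regions called in 1 to 3 of the 4 libraries compared, both FAK-nls libraries called 26.96%, and of those called in at least 1, 55.45%. The kd-only share was thus above the first of these references and the null-only share below it.

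All 4 FAK-WT and FAK-nls libraries called 164 kd-only regions (15.1%), and 113 null-only regions (9.22%), against 45.4% of the regions called in at least 1 of the 4 libraries compared and 12.6% of those called in 1 to 3. None of the 4 called 197 kd-only (18.1%) and 310 null-only regions (25.3%), against 15.6% and 29.6% of these references. Both FAK-WT and neither FAK-nls libraries called 91 kd-only regions (8.36%), and both FAK-nls and neither FAK-WT libraries called 90 (8.27%). For null-only regions these numbers were 130 (10.6%) and 85 (6.93%), and for the regions called in 1 to 3 of the 4 libraries the shares were 6.99% and 6.02%. In promoters the kd-only regions were called in 47.0% and 58.1% of cases in FAK-WT and 66.9% and 64.8% in FAK-nls libraries, and outside promoters in 51.1%, 45.2%, 39.3% and 42.2%. The FAK-nls libraries, which had the shortest peak lists (24402 and 24974), thus called more of the kd-only promoters than the FAK-WT libraries, and fewer of the other kd-only regions. The same order was found in the regions called in 1 to 3 of the 4 libraries, at 40.4% and 49.5% in FAK-WT and 56.1% and 55.5% in FAK-nls libraries in promoters, and at 42.0%, 37.8%, 33.4% and 34.3% outside them, so it is not particular to the kd-only regions.

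**Figure D4:**
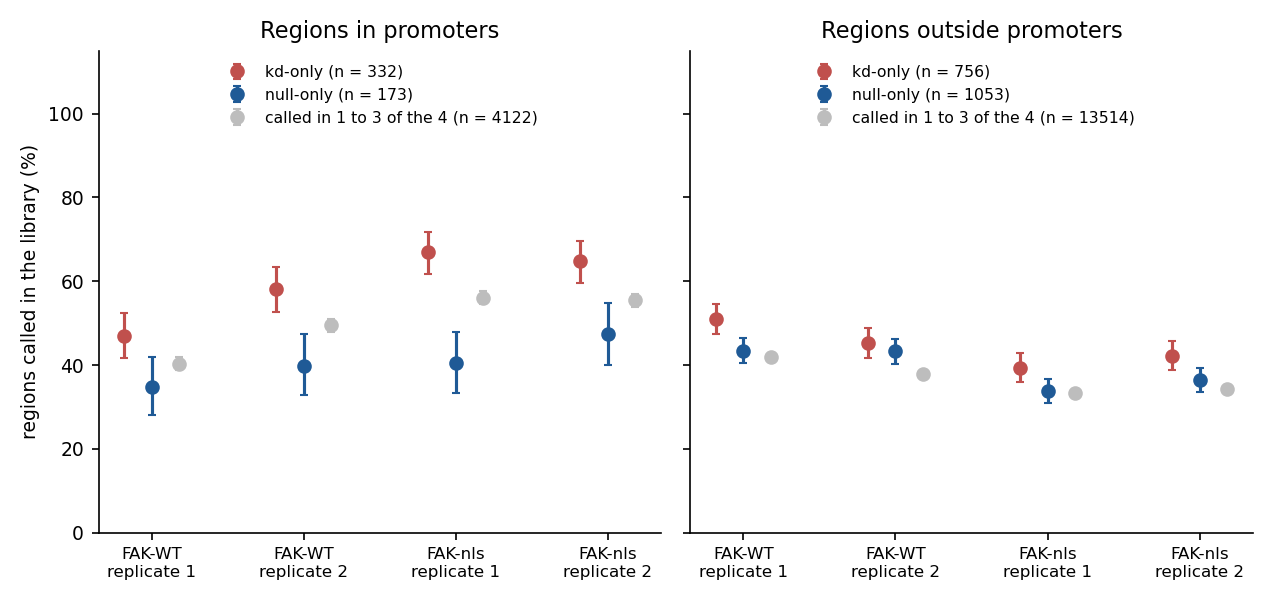
Share of regions called in each FAK-WT and FAK-nls library, with 95% Wilson intervals, for regions in promoters (left) and outside them (right), with the regions called in 1 to 3 of the 4 libraries compared in gray. Kd-only promoters were called in 47.0% to 66.9% of cases, null-only promoters in 34.7% to 47.4% and the gray reference in 40.4% to 56.1%.

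Few members were exclusive to a line when every deposited peak was counted. There were 11 kd-only regions (1.01%) and 27 null-only regions (2.20%) without a peak in any of the other 6 libraries. After *Nid2*, the strongest of the 11 lay in introns of *Parp8* (chr13:116951396-116951780, 4.31 and 5.43) and *Syt1* (chr10:108979693-108980168, 4.19 and 5.12) and upstream of *Smarca2*, the gene of a chromatin remodeling ATPase (chr19:26412629-26412974, 4.18 and 5.04). The strongest of the 27 lay upstream of *Fstl1*, which encodes a secreted follistatin-like glycoprotein (chr16:37728638-37729070, 5.73 and 5.41), followed by a region in an intron of *Fto* (5.26 and 4.78), one at the start of a non-coding transcript with *Defb30* as the nearest coding gene (chr14:63054723-63055105, 4.90 and 4.47) and one in an intron of *Cpeb2* (4.97 and 5.32). AP-1 was present in 5 of the 11 and 9 of the 27.

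AP-1 was the most frequent of the motifs searched in both sets, and more frequent in null-only than in kd-only regions. In the central 500 bp, TGACTCA or its reverse complement was found in 430 kd-only (39.5%, 36.7 to 42.5) and 622 null-only regions (50.7%, 47.9 to 53.5), against 38.8% of the regions called in at least 1 library. A shuffled form, ACTCAGT or its reverse complement, was found in 10.5%, 12.4% and 10.0%. Outside promoters, where AP-1 is usual, the shares were closer, at 50% (46.4 to 53.6) in kd-only and 55.3% (52.3 to 58.2) in null-only regions, with 52.0% in the reference and 57.7% where all 4 libraries had a call. In promoters they were 15.7% and 23.1%. With all deposited peaks the overall shares were 42.8% and 43.3%, and in members with no peak in the full lists of the other line 51.2% and 48.8%, so the gap between the sets was not found in either. Without regard to the sets, AP-1 was found in 39.2% and 39.0% of the strongest FAK-kd and 40.8% and 40.3% of the strongest FAK-/- peaks, a difference of -1.46 percentage points, with p = 0.333 as the smallest value the two-sided exact permutation test allows. Over all deposited peaks the shares were 38.4% and 37.5% against 38.5% and 38.9%, a difference of -0.72 points (exact permutation test, two-sided, p = 0.333).

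SP/KLF was found in 16.3% of kd-only and 9.30% of null-only regions, but outside promoters in 4.89% and 5.41%. ZEB/SNAI (CAGGTG), bound by repressors of epithelial genes, was found in 25.4% (22.9 to 28.0) and 21.0% (18.9 to 23.4), and outside promoters in 22.6% and 20.3%. TEAD (GGAATGT), bound by the partners of YAP and TAZ, was found in 7.54% (6.11 to 9.26) of kd-only and 10.4% (8.78 to 12.2) of null-only regions, and outside promoters in 8.60% (6.80 to 10.8) and 11.2% (9.44 to 13.3), where the reference had 10.7%. RUNX went the other way, at 19.7% (17.0 to 22.7) and 16.4% (14.3 to 18.8) outside promoters, with 17.1% in the reference. In promoters NFY was found in 5.42% (3.46 to 8.41) of kd-only and 12.7% (8.55 to 18.5) of null-only regions, with 9.87% in the reference. ETS (17.7% and 18%), C/EBP (TTGCNNAA, 21.4% and 21.2%) and p53 (4.14% and 3.92%) were near the same in both sets. The motif of GATA factors, AGATAA, was found in 17.5% and 19.9%, CTCF in 2.85% and 3.92% and NF-kB in 4.23% and 2.94%. All were searched on both strands, and the p53, CTCF, NF-kB, SRF and NFI motifs as longer consensus patterns. A match marks letters in the sequence and not binding.

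**Figure D5:**
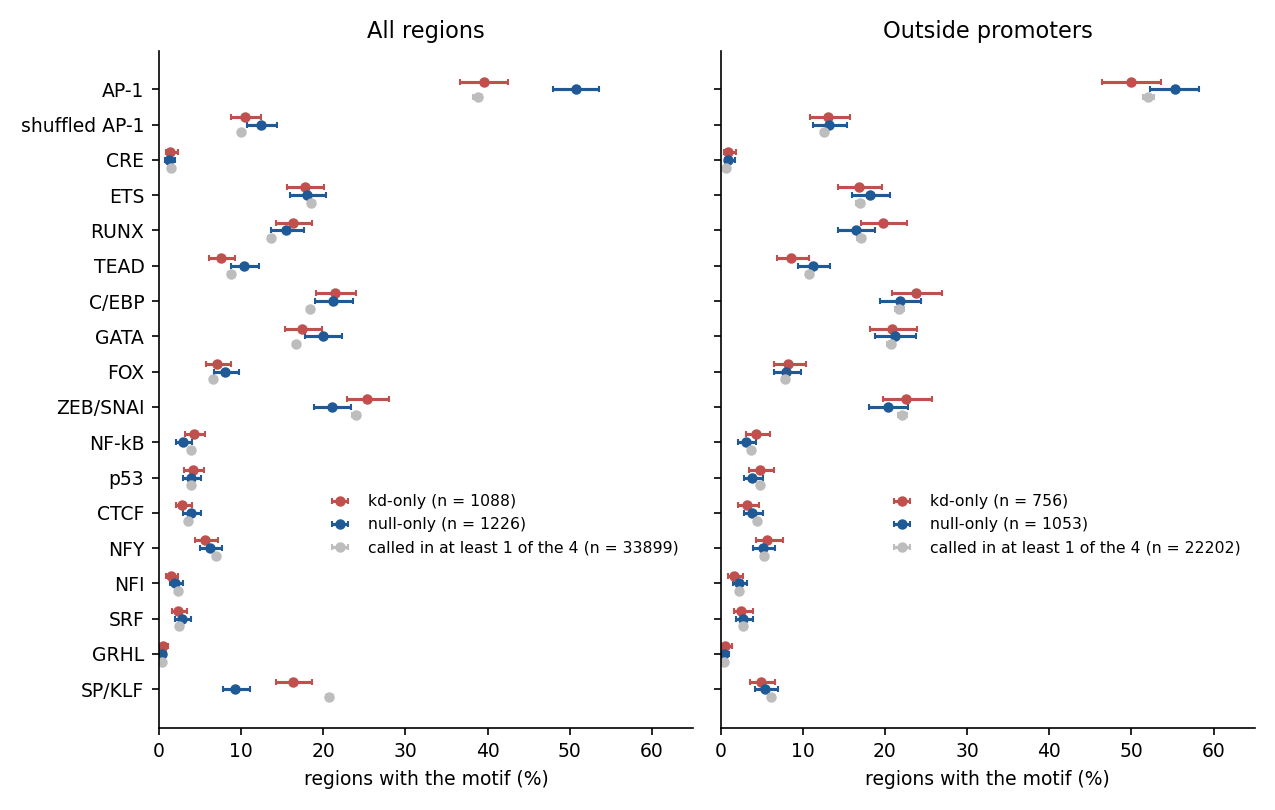
Share of regions with each motif in the central 500 bp, with 95% Wilson intervals, for all regions (left) and regions outside promoters (right). AP-1 was found in 39.5% of kd-only and 50.7% of null-only regions, and outside promoters in 50% and 55.3%, while most other motifs had overlapping intervals.

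Members at gene lists for FAK biology are read beside all protein-coding genes, where 3.02% of the regions (from 10000 bp upstream to the gene end) were kd-only and 3.32% null-only. The regions at FAK and its scaffold partners numbered 99, of which 2 were kd-only (2.02%) and 5 null-only (5.05%). The kd-only regions were at *Git1* and at the *Asap1* promoter, both Arf GTPase-activating proteins that bind focal adhesion complexes. *Cass4*, a Cas family scaffold, had 2 null-only regions. That at chr2:172410763-172411616 had 5.70 and 4.92 in FAK-/- cells and 6.15 and 6.43 in FAK-WT cells, and no peak in either FAK-kd library. *Asap1* and *Arhgap26* held the other null-only regions. Focal adhesion and actin adaptors had kd-only regions at *Tns3*, *Pdlim5* and *Csrp1*, and null-only regions at *Tns1* and *Pdlim5* among others. Integrins and laminins had 1 kd-only region, near *Itgb3*, and 2 null-only regions, at *Itgb6* and *Itgb8*, of 65. Regions were assigned to these genes by the span, and some lay nearer to the start of another coding gene. The nearest was *Ankrd13b* for the *Git1* region, *Fgf1* for both *Arhgap26* regions, *Fam49b* for the null-only *Asap1* region and *Gm11639* for the *Itgb3* region.

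At some genes of growth factor signaling and transcription the kd-only share was higher than at all protein-coding genes (3.02%), on few regions. The EGF receptor family and its regulators had 4 kd-only regions of 66 (6.06%), with 2 at *Lrig1*, a membrane inhibitor of EGF receptors, and 1 each at the ERK phosphatase genes *Dusp4* and *Dusp5*, against 2 null-only regions at *Erbb3* and *Spred1*. The AP-1 factor genes had 3 of 53 (5.66%), at *Mafk*, *Bach1* and *Bach2*, which encode small Maf and Bach proteins rather than Jun or Fos, and no null-only region. The mesenchymal transition list had 4 of 41 (9.76%), at *Prrx1*, *Col1a1* and, with 2, *Tgfbr1*. It had 1 null-only region at *S100a4*, with *S100a3* as the nearest coding gene. At *Tgfbr1*, a TGF-beta receptor, the values were 4.34 and 5.08 and 4.08 and 7.45 in the FAK-kd libraries, with weaker peaks of 4.16 and 3.95 in FAK-/- replicate 1. The p53 pathway had 2 of 32 (6.25%), at *Phlda3* and the *Fas* promoter. YAP and TAZ targets had 3 kd-only and 2 null-only regions of 80, matrix proteases 1 (*Pappa*) and 3 of 66, ETS factors 1 (*Erf*) and 1 of 55, adhesion receptors 1 (*Nectin1*) and 0 of 70, chemokines and cytokines 1 (*Cxcl1*) and 1 of 27, and keratinocyte identity 0 and 1 (*Grhl1*) of 20. With lists this short, the counts are descriptions, and nothing particular to a list is read from them.

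Of the regions at 10 genes fixed for their ties to FAK, 1 was a member, and with so few regions this count is not told apart from the background of 3.02% kd-only and 3.32% null-only. *Il33* had 6 regions between 50 kb upstream and the gene end, with 2 called in all 4 libraries and none kd-only or null-only. The region at chr19:29887480-29887978 had 5.85 and 5.86 in FAK-kd cells and 6.91 and 6.12 in FAK-/- cells. A region annotated as intronic (chr19:29942388-29942780) lay at -3206 bp from the nearest coding start, with AP-1, CRE (TGACGTCA) and GATA matches. The paper places its *Il33* enhancer, with a CRE site, at about this distance. There it reports less c-Jun binding in FAK-kd than in FAK-WT cells. It found no enhancer peak in FAK-kd or FAK-nls cells and a weaker one in FAK-/- cells. In the same data, the called peaks here had 6.32 and 4.01 in FAK-WT cells and 5.88 in FAK-/- replicate 1. No peak was present in FAK-/- replicate 2 or in any FAK-kd or FAK-nls library. *Jun*, *Fosl1* and *Fosl2* each had 1 region called in all 4 libraries and no member. *Ccl5* had a null-only region in an intron (chr11:83527941-83528564), with 4.35 and 4.45 in FAK-/- cells. Below the ranking limit it had peaks of 3.01 in FAK-kd replicate 2 and 3.97 in FAK-WT replicate 1. No FAK-WT or FAK-nls library called it, and the upstream region of *Ccl5* was called in all 4. The *Cxcl10* promoter was called in FAK-kd replicate 2, at 4.47, and in the FAK-WT libraries, at 5.34 and 4.11, but not in FAK-kd replicate 1 or FAK-/- cells. The FAK-/- libraries had peaks of 3.70 and 3.30 below the ranking limit, and FAK-kd replicate 1 had no peak. The *Cdkn1a* region was called in both FAK-kd libraries and FAK-/- replicate 2. *Vcam1* had its intron region in all 4 libraries, and *Igfbp3* had no called region.

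Regions called in every library were compared by strength. They were selected by the same calls, so regions that differ most between the lines are not among them. At 13172 regions called in all 8 libraries, log2 fold enrichment was compared between FAK-kd and FAK-/- cells with limma. No region was higher (0%) or lower (0%) in FAK-kd cells at an adjusted p under 0.05, the smallest adjusted p being 0.609, and 661 (5.02%) had an unadjusted p under 0.05, 303 higher and 358 lower. Both FAK-kd libraries lay above both FAK-/- libraries at 2287 regions (17.4%) and below them at 2288 (17.4%). The study calls the 2 libraries of a line biological replicates and the sources used here do not describe separate cultures, so the p-values measure the spread between these libraries only.

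The regions with the smallest p in each direction are given as descriptions, since none passed the adjusted limma test. The largest positive difference was at *P3h2* (chr16:26064936-26065613), with a fold enrichment of 7.96 and 10.8 in FAK-kd cells against 5.35 and 4.80 in FAK-/- cells, a log2 difference of 0.80 (SE 0.17, limma adjusted p = 0.649). This region lies in the same locus as the kd-only *P3h2* region. Next were regions near *Msr1* (7.02 and 10.3 against 5.41 and 5.18, log2 difference 0.62), *Mkrn1*, and the promoters of *Acot2* (6.14 and 7.66 against 4.41 and 4.08, 0.60) and *Sf3b2*. On the negative side, the lowest of these values was near *Gm597* (-0.77). The region near *Mef2c*, which encodes a transcription factor of muscle and immune cells, had 3.94 and 5.73 against 8.25 and 7.10 (log2 difference -0.75, SE 0.15, limma adjusted p = 0.609). Regions near *Grb14* (-0.62), *Rassf8* (-0.56) and *Mre11a* (-0.56) followed. In none of the 10 did the FAK-kd and FAK-/- libraries overlap in fold enrichment. The 10 were picked by the p of this same contrast, so nothing is read from this. Over all 13172 regions, on normalized values, the FAK-kd libraries lay wholly above at 17.4% and wholly below at 17.4%. With pileup in place of fold enrichment, 17 of the 13172 regions passed an adjusted p under 0.05 in limma, 8 higher and 9 lower. Among them were those at *P3h2* (1.24, adjusted p = 0.0371), *Mre11a* (-1.08, 0.0137) and *Grb14* (-1.19, 0.0137). Low p values were more frequent throughout with pileup, which is not divided by local background. An unadjusted limma p under 0.05 was found at 1455 regions (11.05%), against 661 (5.02%) with fold enrichment.

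At *Ptk2*, an intron region (chr15:73318552-73319206) had 4.71 and 5.13 in FAK-kd cells against 6.54 and 6.22 in FAK-/- cells, a log2 difference of -0.44 (SE 0.15, limma adjusted p = 0.895), and the 3 other regions tested differed by 0.02 to 0.15. Promoter regions had a slightly larger share of low unadjusted p values on the FAK-kd side. Of 6698 promoter regions 171 were higher and 88 lower at an unadjusted p under 0.05, and of 6474 other regions 132 were higher and 270 lower. In each library the mean log2 fold enrichment of promoters minus that of other regions was -0.05 and -0.11 in FAK-kd cells and -0.13 and -0.11 in FAK-/- cells (difference 0.04, exact permutation test, two-sided, p = 0.333, the smallest possible). FAK-kd replicate 1 was the library that stood apart. Outside promoters, regions with AP-1 exceeded those without it by 0.08 and 0.10 in FAK-kd cells and by 0.09 and 0.08 in FAK-/- cells, and the lines overlapped (exact permutation test, two-sided, p = 0.667).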

How the data were processed

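ATAC-seq peaks of 8 libraries (4 lines with 2 replicates each) were used as deposited. The authors aligned reads to mm10 and called broad peaks in each library separately with MACS2 (version 2.1.1 in the submitters' processing notes) at a q-value limit of 0.05. Each deposited peak has a pileup (coverage signal), a −log10 p-value, a −log10 q-value and a fold enrichment, the ratio of pileup to local background. No read counts per region were used. Mapped reads per library, which the study's supplement lists, did not enter any test, and shares carry 95% Wilson intervals for the counting of regions only.

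After limiting the lists to chromosomes 1 to 19, X and Y, peaks were ranked by −log10 p, the 24383 strongest of each library were kept (the length of the shortest list), and peaks overlapping by at least 1 bp were merged over the 8 libraries. Positions came from GENCODE vM21 on GRCm38 (the mm10 sequence), and sequences from the RefSeq copy of that assembly. Motifs were exact matches on both strands in the central 500 bp. Values per library were compared by exact permutation tests over the 6 choices of 2 of 4 libraries. Regions called in all 8 libraries were compared with limma 3.58.1 in R 4.3.3 on quantile-normalized log2 fold enrichment, computed here from the deposited ratio, with 4 lines in 1 fit and Benjamini-Hochberg adjustment. Python 3.11.15 with pandas 2.3.3, scipy 1.17.1 and pysam 0.24.0 was used otherwise, and the scripts were tested on simulated data.

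Named genes were 10 genes tied to FAK, the 10 strongest regions and the 5 strongest protein-coding promoters of each set, the 5 genes nearest to most regions, the list genes with a member, and the 5 regions with the smallest limma p in each direction. The regions without a peak in the other 6 libraries were picked out after their values were seen. The members, gene lists and motifs were chosen with earlier results of these data known. Alternatives were the number and ranking of peaks, merging, overlap, motif window, normalization, a replicate block and leaving out each library. Part of 1 gene list is not reported here.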

Additional observations from a re-analysis of the deposited data

How the results depend on the processing

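The counts of kd-only and null-only regions stayed within 805 to 1241 and 906 to 1493 under the alternatives that kept all libraries, and rose to 2178 to 3450 and 2317 to 3084 when 1 library was left out, since a line then needs only 1 call, or only 1 missing call, to meet the rule. With all deposited peaks, AP-1 was found in 42.8% of kd-only and 43.3% of null-only regions, promoters held 14.7% of kd-only regions, and both FAK-WT libraries called 42.9% and 38.6%. With the 15000 strongest peaks, AP-1 was found in 36.0% of kd-only regions and promoters held 41.5% and 22%. Motif windows of the whole region gave AP-1 shares of 48.8% and 56.3%, and of 200 bp 26.9% and 34.6%. Leaving out 1 library gave AP-1 shares of 36.0% to 40.2% and 44.8% to 48.5% and promoter shares of 21.3% to 35.9% and 15% to 19.6%, with the smallest gap between the sets (1.68 percentage points against 16.4) without FAK-kd replicate 1. The difference in peak number ranged from -6243.5 to 6751.5 and was below 0 without FAK-kd replicate 2 (-6243.5) and without FAK-/- replicate 2 (-3694.5). Pileup in place of fold enrichment raised the limma calls from 0 to 17 of 13172 regions, and the other alternatives left them at 0. It also raised the regions at an unadjusted limma p under 0.05 from 661 to 1455. With a replicate block the limma count stayed 0, with 606 regions at an unadjusted p under 0.05, and the 2 numbered pairs share only a number. Causes were not tested. A region that is not called can hold a peak below the ranking limit. The lower number of mapped reads listed for the FAK-kd libraries did not enter any alternative.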
